A study of Homo sapiens with 63 samples.

Results

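The BCL2 family was followed here in small cell lung cancer (SCLC) cell lines through 10 of its genes: BCL2, BCL2L1, MCL1, BCL2L11, BAD, BAK1, BID, BIK, HRK and BMF. The members were every array probe whose symbol in the platform annotation is one of these genes, which gave 24 of the 47217 probes on each array, and the probes of a gene were kept apart. A probe was tested if 4 or more of the 63 arrays put its signal above the negative controls, at a detection p under 0.05, as was so for 20 of the 24 member probes and for 30716 probes in all. The 4 that did not pass were BCL2 ILMN_1701120, BCL2L11 ILMN_1774997, BMF ILMN_1787794 and BMF ILMN_1810239, which were detected on 2, 3, 3 and 0 arrays, and every gene kept at least 1 other probe.

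Proteins of this family decide whether the outer mitochondrial membrane is opened and cytochrome c released. BCL2, BCL2L1 (whose long form is BCL-XL) and MCL1 hold cells alive by binding their pro-apoptotic relatives, BAK1 is an effector that forms the pores, and the BH3-only proteins act upstream. Of these, BCL2L11 (BIM) and BID activate the effectors, while BAD, BIK, HRK and BMF act mainly by occupying the protective members. High BCL2 is a known feature of neuroendocrine SCLC, and MCL1 is known as a short-lived protein whose amount is set to a large part by its degradation.

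RNA came from 9 established human SCLC lines, of which DMS53, DMS114 and DMS153 form the DMS series and H69, H128, H146, H187, H209 and H526 the H series, each on 1 Illumina HT-12 v4 array in each of 7 conditions. The conditions were Con (vehicle), A5 and A50 (the PARP inhibitor veliparib, also named ABT888, at 5 or 50 µmol/L), C+0 (cisplatin alone), C+5 and C+50 (the same cisplatin with veliparib at 5 or 50 µmol/L) and Rad (gamma radiation of 2 Gy). Cisplatin was given at the IC50 dose of each line, which the labels put between 0.4 µmol/L in H526 and 14.5 µmol/L in H128, so a cisplatin condition is a different dose in each line. The study's methods give an exposure of 24 h for the arrays, while the labels carry a longer time in the wording of the viability assay. The replicate is the line: 7 arrays of a line are not separate isolates. In treatment comparisons the SEs and p-values rest on the spread left between arrays after the line and the condition are fitted. This spread was pooled over the 7 conditions and, where only some lines were compared, still over all 9 lines. It is therefore not the spread of the single change between the lines compared. At baseline p-values measure the spread of a level between lines. In its IC50 table the study marks H146, H187, H209, H526 and DMS153 as lines in which veliparib strongly lowered the IC50 of a chemotherapy drug. These 5 are called sensitive here, and the other 4 insensitive. The mark is for potentiation by veliparib and not for cisplatin alone, since H209, at 14.2 µmol/L, had a cisplatin dose close to that of unmarked H128. The text of the study names another group of 5, with DMS114 in place of DMS153, and neither set is in the sample labels. Its methods also state that the short tandem repeat profile of H128 did not match the reference for that line.

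Between 19124 and 22330 probes were detected per array (median 20692). Arrays of the same line had deviations from the condition means that correlated at 0.93 to 0.98, across probes, which are not independent, and those of different lines at no more than 0.16. Of 11 neuroendocrine marker genes with a kept probe, 9 to 11 were detected in every line at Con. The log2 of their summed linear signal, in which the brightest genes weigh most, was however 11.50 in DMS114 against 13.34 to 15.14 in the other lines. Of 8 fibroblast markers, 5 were detected in DMS114, among them COL3A1 at 11.30, DCN at 11.24 and LUM at 10.12 on the log2 scale, and 0 to 3 in the other lines. Other markers of this list were highest elsewhere, COL1A2 (9.29) and FAP (7.59) in H128 and PDGFRA (7.29) in H146. In DMS114 these were 6.57, 6.59 and 6.57. Of the leucocyte markers, CD14 was detected in 9 lines at Con (6.74 to 8.04), MS4A1 in 4 (at most 6.73) and LYZ in 1, DMS114 (6.78), while PTPRC, CD3E, CD3D and ITGAM were detected in 0. The log2 of the summed linear fibroblast signal was 12.69 in DMS114 and 9.51 to 10.42 elsewhere at Con. The part of this signal in the levels of DMS114 given below was not tested.

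BCL2, HRK and BMF are examples of genes that spread widely among the lines while hardly moving with treatment. The 250 bases upstream of their RefSeq start sites are shown. They lie on the minus strand of GRCh38.p14, at chr18:63319770-63320019 for BCL2, chr12:116881442-116881691 for HRK and chr15:40108880-40109129 for the first of the BMF windows, and are written 5′ to 3′ along the gene. Capitals mark the E-box letters CANNTG, the core bound by basic helix-loop-helix factors such as those that specify neuroendocrine cells, searched in a form that reads alike on both strands.
BCL2: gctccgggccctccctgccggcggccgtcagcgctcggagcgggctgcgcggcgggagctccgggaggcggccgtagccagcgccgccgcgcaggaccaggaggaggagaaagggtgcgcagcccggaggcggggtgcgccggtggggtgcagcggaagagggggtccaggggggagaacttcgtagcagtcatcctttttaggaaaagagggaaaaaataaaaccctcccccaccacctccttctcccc
HRK: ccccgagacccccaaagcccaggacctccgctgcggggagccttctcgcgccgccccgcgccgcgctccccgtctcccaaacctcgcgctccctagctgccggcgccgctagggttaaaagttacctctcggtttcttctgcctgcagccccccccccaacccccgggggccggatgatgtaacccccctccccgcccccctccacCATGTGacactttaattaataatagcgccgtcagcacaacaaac
BMF: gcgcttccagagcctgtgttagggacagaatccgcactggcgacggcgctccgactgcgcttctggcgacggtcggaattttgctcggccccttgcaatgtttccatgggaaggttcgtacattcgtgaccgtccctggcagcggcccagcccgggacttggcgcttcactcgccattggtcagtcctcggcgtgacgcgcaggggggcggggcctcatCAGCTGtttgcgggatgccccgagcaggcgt
The BCL2 window held no CANNTG and 24 CG dinucleotides, the HRK window held 1 CANNTG and 22 CG, and the BMF window held 1 CANNTG and 26 CG. A second BMF window, at chr15:40106967-40107216, held 2 CANNTG and 0 CG, so these counts depend on the start site. BCL2L1 ILMN_1654118 also spread widely (range 1.94), with small fitted treatment changes. The windows of BCL2L1, not shown, held no CANNTG, and 17 and 12 CG. Over the 35116 windows of all genes, 61.8% held at least 1 CANNTG and the median number of CG was 11, so a match is common and is only a description. RefSeq windows were found for 8 of the 10 genes.

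Which line the RNA came from set the level of the family. On the log2 scale, the line accounted for a median of 93.55% of the sum of squares of the 20 member probes and the treatment for 1.30%, against 86.59% and 2.53% over all kept probes. All 20 differed among the lines in limma's moderated F test with the line and the condition in the model (adjusted p at most 7.91e-07), but so did 88.1% of all probes, and the count is therefore no property of the family. That p sets the lines against the spread among the 7 arrays of a line, which are not separate isolates. A line whose 7 arrays all lay above the 56 others was found for 2 of the 20 member probes, where 28% of all probes had such a line, and a line whose arrays all lay below was found for 3, where 13.6% did. No background was subtracted here, and the lowest deposited intensity was 68.4, so folds between lines are ratios of signals that may include background, and levels of different probes cannot be compared.

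BCL2, the founding survival gene, had the widest spread of the 10 genes. Its probe ILMN_2246956 had a mean log2 signal over the 7 arrays of 10.34 ± 0.23 (SD) in DMS153, 10.06 ± 0.095 in H526, 9.95 ± 0.215 in DMS53 and 9.88 ± 0.084 in H187. It was 9.39 ± 0.065 in H146, 8.93 ± 0.062 in H209 and 8.31 ± 0.048 in H69. The lowest means were 6.94 ± 0.046 in H128 and 6.67 ± 0.087 in DMS114, where 3 of 7 arrays were detected. The top 4 lines overlapped with their neighbours in this order, and from H187 downwards no line overlapped with the next. Between DMS153 and DMS114 the range was 3.67 on the log2 scale, which is wider than that of 98.36% of kept probes or as wide as theirs. A second probe of the same transcript, ILMN_1801119, had the same lines at both ends, 10.10 in DMS153 and 6.57 in DMS114, and was not detected on any DMS114 array, so DMS153 was at least 10.7-fold higher. The third kept probe, ILMN_2363250, which the annotation gives to another BCL2 transcript, stayed between 6.55 and 6.93.

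BCL2L1 was highest in H209 and H146 and lowest in DMS114. Probe ILMN_1654118 gave 10.59 ± 0.062 in H209, 10.56 ± 0.092 in H146, 10.29 ± 0.058 in H187 and 10.27 ± 0.077 in DMS153. It gave 9.75 ± 0.12 in H69, 9.71 ± 0.084 in H526, 9.55 ± 0.089 in H128 and 9.49 ± 0.070 in DMS53. In DMS114 it was 8.66 ± 0.053, and the highest DMS114 array lay 0.67 below the lowest array of any other line. The order therefore fell into 4 steps, H209 with H146, H187 with DMS153, the 4 lines from H69 to DMS53, and DMS114, with overlap inside each step. The dimmer probe ILMN_1742410 ran with it over the lines (r = 0.95 over 9 line means), from 8.19 in H209 to 7.01 in DMS114.

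MCL1 ran in another order, and by its brighter probe without gaps. ILMN_1803988 gave 9.66 ± 0.13 in H69, 9.64 ± 0.086 in H187, 9.61 ± 0.085 in H526 and 9.52 ± 0.15 in DMS153. It gave 9.34 ± 0.11 in H128, 9.09 ± 0.11 in DMS114 and 9.07 ± 0.12 in H146, and the lowest means were 8.71 ± 0.14 in H209 and 8.46 ± 0.15 in DMS53. Each line overlapped with the next in this order, and all 63 arrays were detected. Thus the line lowest in MCL1, DMS53, was among the higher lines for BCL2, and DMS114, lowest in BCL2 and BCL2L1, lay in the middle for MCL1. MCL1 ILMN_1756806 also had its lowest mean in DMS53, at 8.02, but H187 was highest at 9.24, followed by H526 and H69, and there were gaps below DMS153 and below H209.

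BAK1, the pore-forming effector, differed less. Its only probe, ILMN_1805990, gave 7.47 ± 0.15 in DMS114, 7.15 ± 0.033 in H209, 7.08 ± 0.078 in DMS53 and 6.98 ± 0.076 in H526. It gave 6.92 ± 0.20 in H128, 6.89 ± 0.10 in H146, 6.89 ± 0.059 in H69, 6.84 ± 0.060 in H187 and 6.83 ± 0.10 in DMS153. Neighbouring lines overlapped throughout, and DMS114, the line with the least BCL2 and BCL2L1 signal, had the highest mean. The lowest H128 array (6.62) was the only one of 63 on which BAK1 was not detected.

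Among the activators, BCL2L11 had a low signal near the detection limit. Probe ILMN_2359627 gave 7.49 ± 0.077 in H209, 7.24 ± 0.065 in H146, 7.24 ± 0.081 in H128, 7.21 ± 0.095 in DMS153 and 7.17 ± 0.064 in H187. It gave 7.005 ± 0.0998 in H526, 6.84 ± 0.068 in DMS53, 6.83 ± 0.091 in DMS114 and 6.69 ± 0.058 in H69, where 3 of 7 arrays were detected. H209 stood above H146 without overlap and all other neighbours overlapped. The dimmer probe ILMN_1766541 had the same line on top, 6.97 in H209, with all 7 arrays above the 56 others by 0.050, and was not detected on any array of DMS114 or H69.

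BID had well detected probes that fell into a clear order. ILMN_1763386 gave 8.82 ± 0.061 in H69, 8.70 ± 0.070 in H146 and 8.47 ± 0.060 in DMS153, with a gap after H146 and another after DMS153. It gave 8.19 ± 0.062 in DMS53, 8.13 ± 0.089 in H209, 7.95 ± 0.095 in H187, 7.91 ± 0.13 in H128, 7.82 ± 0.038 in H526 and 7.67 ± 0.095 in DMS114, with overlap between neighbours. Probe ILMN_2372413 followed it (r = 0.99 over 9 line means), whereas the dim probe ILMN_2259495, between 6.67 and 6.96, did not (r = 0.19).

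BAD, a BH3-only protein controlled by phosphorylation, was measured everywhere and varied little. Probe ILMN_1738652 gave 8.73 ± 0.028 in H526, 8.69 ± 0.10 in H187, 8.57 ± 0.065 in H209, 8.47 ± 0.032 in H146 and 8.41 ± 0.042 in H69. It gave 8.29 ± 0.087 in DMS53, 8.03 ± 0.13 in DMS114, 8.00 ± 0.087 in H128 and 7.97 ± 0.080 in DMS153, and each line overlapped with the next. Of its other probes, ILMN_1685398 ranged from 6.87 in DMS153 to 7.39 in H526, and ILMN_1720360 was detected on only 5 arrays.

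BIK and HRK were detected in some lines and on no array of others, and BMF was near the detection limit in several. BIK, which acts from the endoplasmic reticulum, gave 7.70 ± 0.095 in H187, 7.69 ± 0.092 in DMS153 and 7.54 ± 0.13 in DMS53 (ILMN_1770505). These 3 lines overlapped with each other and lay apart from H146 (7.04 ± 0.037), H526 (6.998 ± 0.10) and H209 (6.81 ± 0.11). In DMS114, H69 and H128 it was not detected on any array, with measured means of 6.39, 6.37 and 6.35, which made H187 at least 2-fold to 2.03-fold higher than these lines, taking the lowest detected signal of each array as the bound.

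HRK, a BH3-only protein best known from neurons, was highest in H128. Probe ILMN_2193706 gave 8.06 ± 0.10 in H128, 7.01 ± 0.063 in H69 and 6.87 ± 0.083 in H209, each detected on 7 of 7 arrays. The lowest H128 array stood 0.84 above the highest array of any other line. In the other lines the means were between 6.52 (H526) and 6.61 (H146), and of those 42 arrays only 1, of DMS53, was detected. H128 was at least 2.61-fold to 2.66-fold higher than the 5 lines with no detected array. Since the profile of H128 did not match its reference, this level belongs to the cells so labelled.

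BMF, which is held at the cytoskeleton in unstressed cells, was highest in H187 and DMS153. Probe ILMN_2308338 gave 8.11 ± 0.068 in H187 and 8.07 ± 0.11 in DMS153, then, after a gap, 7.21 ± 0.13 in H526 and 7.19 ± 0.060 in H209. It gave 6.996 ± 0.081 in DMS53, 6.73 ± 0.041 in H69, 6.68 ± 0.053 in H146, 6.65 ± 0.046 in DMS114 and 6.64 ± 0.081 in H128. The last 4 lines overlapped and were detected on 2 to 5 of 7 arrays. By probe ILMN_1695354, which followed the first (r = 1.00 over 9 line means), these 4 lines had no detected array and H187 was at least 2.61-fold to 2.67-fold higher than each of them.

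**Figure D1:**
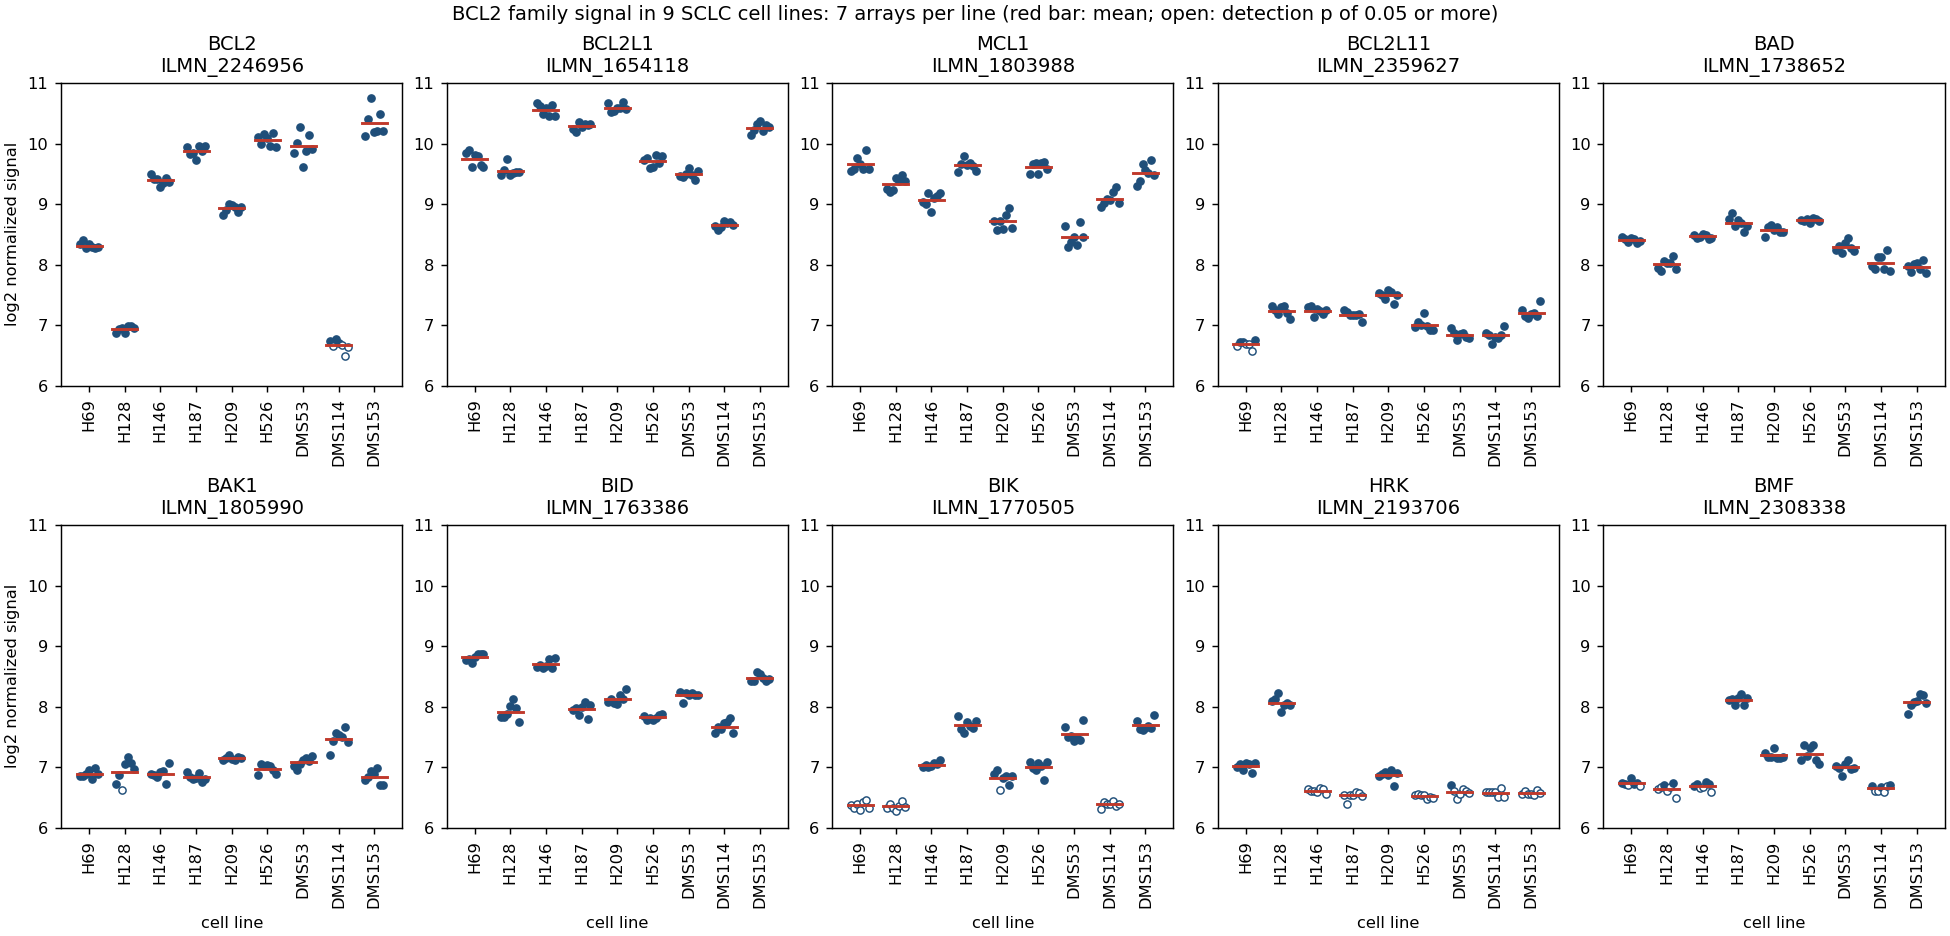
Log2 normalized signal of the brightest kept probe of each of 10 BCL2 family genes (vertical axis) in 9 SCLC lines (horizontal axis), with 7 arrays per line as points, filled where detected, and the line mean as a red bar. BCL2 runs from 10.34 in DMS153 to 6.67 in DMS114, and HRK stands at 8.06 in H128 with most other lines undetected.

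Some members rose and fell together over the lines, and others ran opposite. Between the brightest probes of different genes, the highest correlations of the 9 line means were r = 0.87 for BCL2 with BIK, r = 0.81 for BIK with BMF and r = 0.71 for BCL2L1 with BCL2L11. The lowest were r = −0.65 for BCL2L1 with BAK1, r = −0.61 for BCL2 with HRK and r = −0.58 for BIK with HRK. These are descriptions over 9 lines whose arrays share the same RNA handling, and no test was made. H69, H128 and DMS114 were the 3 lines at the bottom for both BCL2 and BIK, while H187 and DMS153 were in the top 4 for BCL2 and the top 2 for BIK and BMF. Over the 21600 other kept probes with a symbol, the 2 genes whose line means were most like those of BCL2 were DLG3 (r = 0.97) and KNTC1 (r = 0.95). The most alike were RAB27A (r = 0.95) and ATG3 (r = 0.94) for BCL2L11, LIN7C (r = 0.98) and MBD4 (r = 0.97) for BIK, PDYN (r = 0.99) and AMOTL1 (r = 0.98) for HRK, and MDH1B (r = 0.97) and PSME2 (r = 0.97) for BMF.

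Treatment moved few members, and by little. Each condition was compared with Con within the 9 lines in limma, with the line as a block and p-values adjusted by Benjamini-Hochberg over the 30716 probes. With C+50, 2 of 20 member probes passed an adjusted p of 0.05, where 17.2% of all probes did, and with A50 4 passed, where 11.7% did. With C+5 1 member probe passed (1.66% of all probes), and with A5, C+0 and Rad none did, where 0%, 1.26% and 0.827% of all probes passed. At an unadjusted p under 0.05 there were 0 member probes with A5 (1299 of all 30716 probes), 1 with C+0 (3475) and 1 with Rad (3737). There were 7 with A50 (7024 of all probes), 6 with C+5 (3493) and 7 with C+50 (8413). Against C+0, C+50 changed 1 member probe (11.7% of all probes), and against A50 it changed none (0.368% of all probes). For the latter, 3 member probes had an unadjusted p under 0.05, where 3509 of the 30716 probes did. Additivity was tested as the C+50 change minus the C+0 and A50 changes added up, and no member passed (0.00977% of all probes). In that test 2 member probes had an unadjusted p under 0.05, where 2052 of the 30716 probes did. The fitted changes of the 20 probes lay between −0.11 and 0.22 with C+50, and their median size of 0.042 was close to the 0.037 of all probes. These comparisons share their Con arrays.

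**Figure D2:**
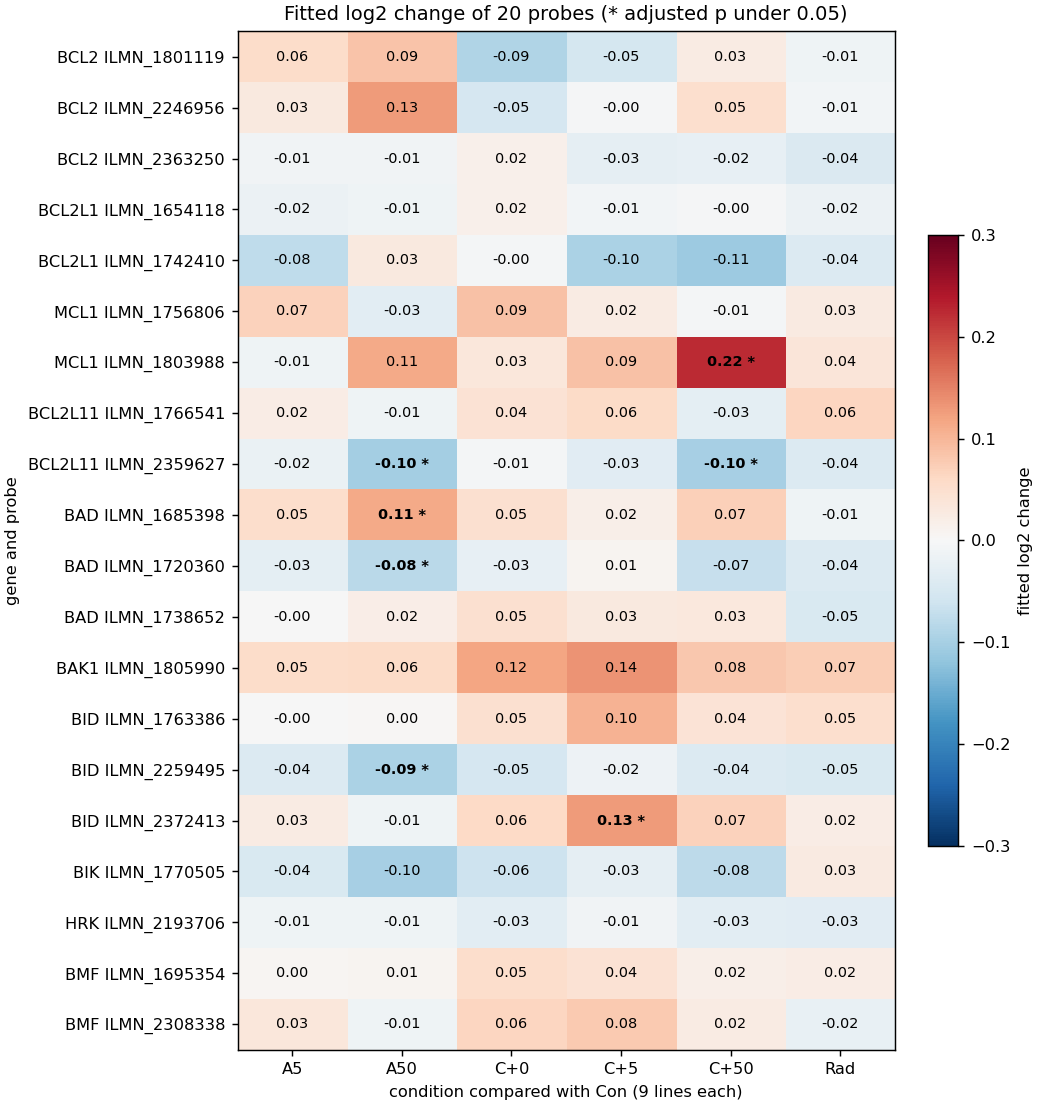
Fitted log2 change from Con (colour and printed value) of 20 BCL2 family probes (rows) in 6 treatment conditions (columns), each over 9 lines, with an asterisk at an adjusted p under 0.05. MCL1 ILMN_1803988 with C+50 is the largest change at 0.22, and the asterisks stand at 4 probes with A50, 1 with C+5 and 2 with C+50.

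MCL1 ILMN_1803988 rose with C+50 in 9 of 9 lines. At Con its log2 signal was 8.63 in the lowest line (DMS53), 9.25 at the median and 9.55 in the highest (H69), and with C+50 it was 8.70, 9.48 and 9.90. The lines spread far more than the treatment moved them, and the groups overlap unless each line is set against itself. The change was smallest in DMS53 (0.072), H187 (0.096) and H146 (0.096), and it was largest in DMS153 (0.43), H69 (0.35) and DMS114 (0.33). H128, H209 and H526 lay between, at 0.23, 0.21 and 0.19. The fitted change was 0.22 ± 0.044 (SE), or 16.7%, with a 95% interval from 0.135 to 0.31 and an adjusted p of 9.38e-05, and it stayed between 0.20 and 0.24 and past the test without any line. Against cisplatin alone the rise was 0.19 ± 0.044 in 8 of 9 lines (adjusted p = 0.00151), and after scaling each array to 1 median it was 0.22 (adjusted p = 0.058). With A50 alone the fitted change was 0.11 ± 0.044 with 6 of 9 lines higher (adjusted p = 0.088), and DMS53 was lower by 0.27.

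The other MCL1 probe did not share this rise. ILMN_1756806 changed with C+50 by −0.0051 ± 0.051 (95% interval −0.106 to 0.096, adjusted p = 0.97), with 5 of 9 lines higher. Its interval ends below the fitted 0.22 of the first probe. In each of the 9 lines the change of ILMN_1803988 was above that of ILMN_1756806, by 0.038 to 0.37 (median 0.21), and this difference between probes was not put to a test. The annotation gives both probes the same MCL1 transcript record, both were detected on 63 arrays, and over lines they ran together (r = 0.86 over 9 line means).

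BCL2L11 ILMN_2359627, a probe for the activator BIM, fell with C+50 in 9 of 9 lines. The lowest, median and highest lines were 6.66, 7.24 and 7.54 at Con and 6.58, 7.15 and 7.35 with C+50. The change ran from −0.19 in H209 and −0.16 in DMS53 to −0.058 in H526 and −0.028 in DMS114. The fitted change was −0.099 ± 0.034 (adjusted p = 0.0305), about the size of the SD between the arrays of a line, and it no longer passed without H128, H146, H209 or DMS53, at changes of −0.11 to −0.088 over all omissions. With A50 it was lower in 7 of 9 lines, by −0.10 ± 0.034 (adjusted p = 0.0379), with H69 (0.071) and H526 (0.028) higher, and this call was lost without any of 7 lines (all but H69 and H526) at −0.12 to −0.088. The second BCL2L11 probe, ILMN_1766541, gave −0.03 with C+50 and −0.01 with A50.

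BID, the activator cleaved by caspases, was called with C+5 at 1 probe. ILMN_2372413 had a lowest, median and highest line of 6.98, 7.45 and 7.96 at Con and of 7.21, 7.58 and 8.07 with C+5. It was higher in 7 of 9 lines, by up to 0.26 in H128, with H187 (−0.021) and H526 (−0.00092) the exceptions. The fitted change was 0.13 ± 0.032 (adjusted p = 0.0193), and it did not pass without H128, H146, H209, DMS114 or DMS153, at 0.11 to 0.15 over all omissions. It also did not pass after scaling to 1 median (0.126, adjusted p = 0.318) or with the compared arrays alone (adjusted p = 0.0687). ILMN_1763386, the brighter probe with the same line pattern, gave 0.10 ± 0.036 (adjusted p = 0.141) with C+5. The dim BID probe ILMN_2259495 was lower with A50 in 8 of 9 lines, by −0.095 ± 0.033 (adjusted p = 0.0475), a call lost without any of 7 lines (all but H69 and H526) at −0.11 to −0.075.

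BAD probes were called in opposite directions with A50. ILMN_1685398 was 6.80, 7.15 and 7.44 in the lowest, median and highest line at Con and 6.87, 7.24 and 7.59 with A50. It was higher in 8 of 9 lines, with DMS53 at −0.021, by 0.11 ± 0.032 (adjusted p = 0.0105), and did not pass without H69 (0.10 to 0.13 over all omissions). The brightest BAD probe, ILMN_1738652, gave 0.02 with A50. ILMN_1720360, detected on 5 of 63 arrays, was lower in 8 of 9 lines, by −0.081 ± 0.027 (adjusted p = 0.0403), and this was lost without any of 7 lines (all but H187 and H209) at −0.095 to −0.068. The share of higher probes among all A50 calls rested on the scaling of the arrays. It was 46.7% after quantile normalization and 5.94% after scaling each array to 1 median. Under the latter the 4 member probes called with A50 kept their directions. ILMN_1685398 gave 0.045 (adjusted p = 0.471) and ILMN_1720360 −0.076 (adjusted p = 0.0591). For C+50 the shares were 47.1% and 33.5%, for C+5 they were 32.5% and 13.8%, for C+0 26.9% and 1.33%, and for C+50 against A50 33.6% and 96.8%. MCL1 ILMN_1803988 and BCL2L11 ILMN_2359627 were called with C+50 in the same directions under either scaling.

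**Figure D3:**
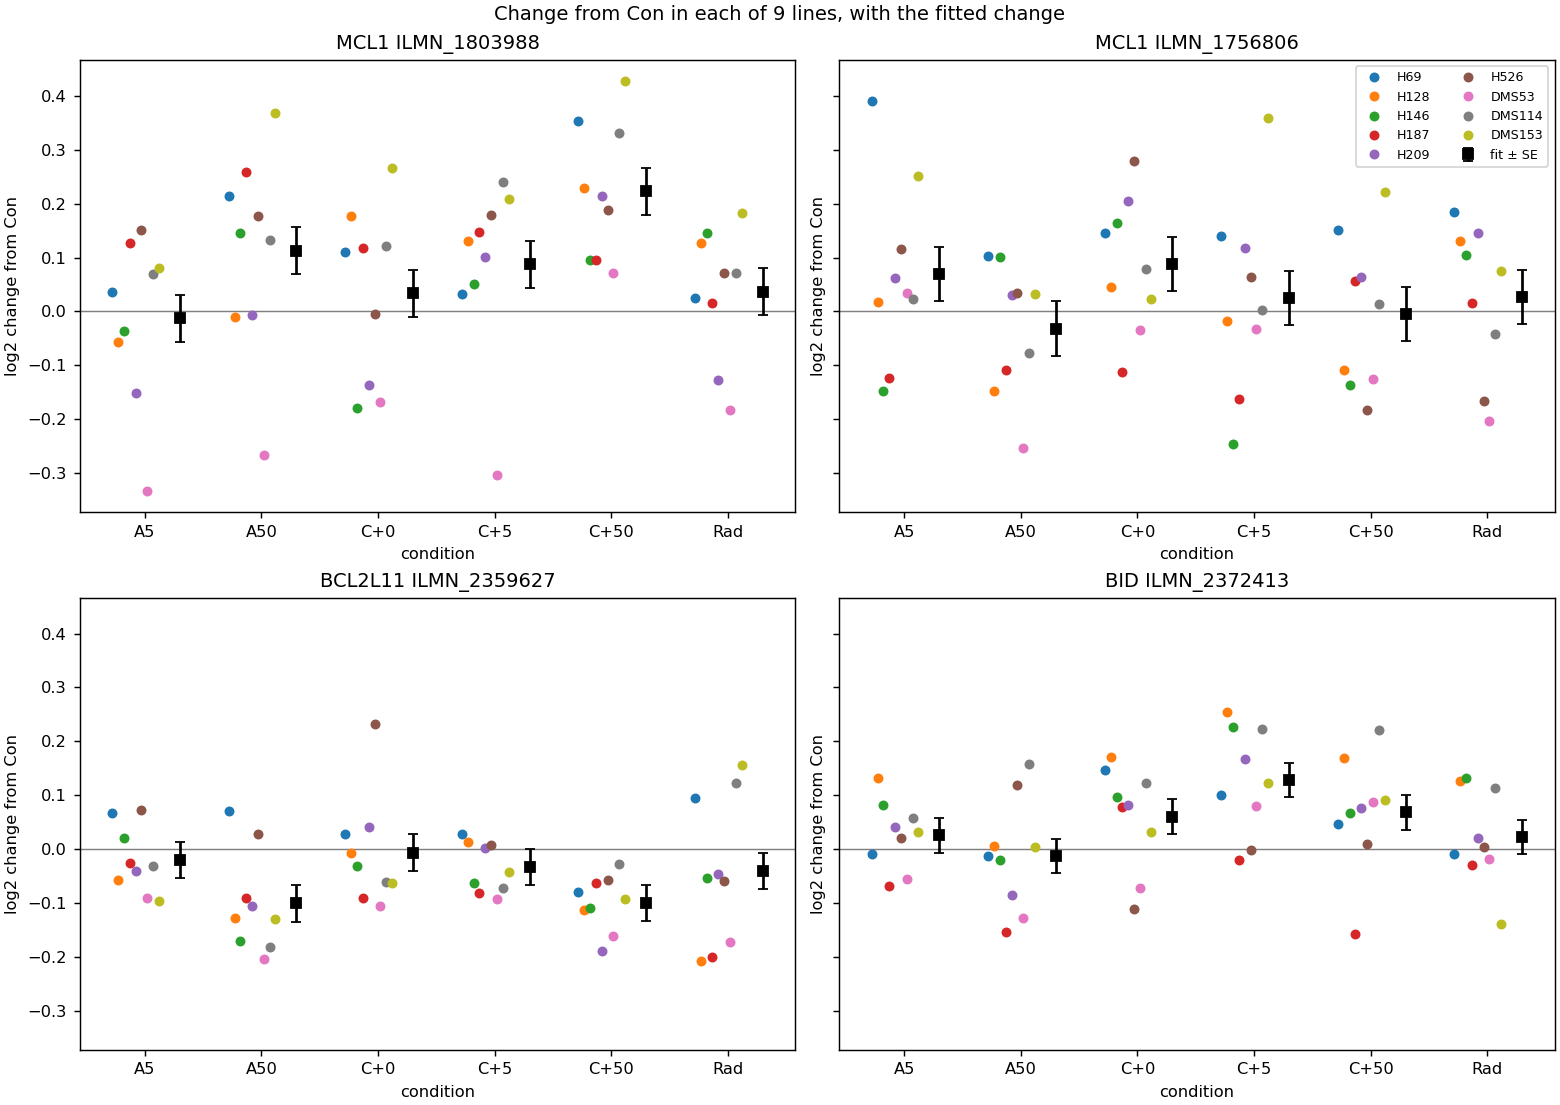
Log2 change from Con (vertical axis) in 9 lines (coloured points) with the fitted change and its SE (black squares), for 6 conditions (horizontal axis) and 4 probes. With C+50 all 9 lines lie above 0 for MCL1 ILMN_1803988 and below 0 for BCL2L11 ILMN_2359627, while MCL1 ILMN_1756806 has 5 lines above 0.

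The remaining members gave no call over the 9 lines. BCL2 ILMN_2246956 had a fitted change of 0.13 ± 0.051 with A50 (adjusted p = 0.098), with DMS153 at 0.64, DMS53 at 0.43 and the other lines between −0.092 and 0.17. Without DMS153 it was 0.064, and after scaling to 1 median it was −0.025. BIK gave −0.0996 ± 0.037 with A50 (adjusted p = 0.0677), lower in 6 of 9 lines, and it passed at −0.135 (adjusted p = 0.0114) after scaling to 1 median, without H69 (−0.113, adjusted p = 0.0467) or without DMS114 (−0.123, adjusted p = 0.0319). With C+50 BIK gave −0.079 ± 0.037 (adjusted p = 0.144). BCL2L1 ILMN_1742410 was lower with C+50 in 7 of 9 lines, by −0.11 ± 0.041 (adjusted p = 0.0539), while its brighter probe ILMN_1654118 gave −0.0024. BAK1 gave 0.12 ± 0.046 with C+0 (8 of 9 lines higher, adjusted p = 0.247) and 0.14 ± 0.046 with C+5 (7 of 9 lines higher, adjusted p = 0.139). HRK lay between −0.03 and −0.01 in all 6 conditions, and the BMF probes between −0.02 and 0.08. HRK was hardly detected outside H128, H69 and H209, and BMF ILMN_1695354 was on no array of H69, H146, DMS114 or H128. A fall could not be measured there.

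Radiation was also compared within the 6 H lines and the 3 DMS lines. No member passed in the H lines, where 5.36% of all probes did, in the DMS lines, where 0.173% did, or for the difference between them, where 3.32% did. At an unadjusted p under 0.05 there were 2, 1 and 1 member probes, where 4868, 2812 and 4263 of the 30716 probes were. BCL2L1 ILMN_1742410 had the only such difference, 0.17 ± 0.086 higher in the H lines (95% interval 0.00067 to 0.345, adjusted p = 0.357). This comparison also rested on scaling, since 81.8% of all calls for the difference were higher after quantile normalization and 98.5% after scaling to 1 median. The latter called 6 of 20 member probes, where it called 6313 of the 30716 probes. Within the H lines the shares were 76.7% and 96.2%, and within the DMS lines 49.1% and 1.29%.

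At baseline the 5 marked lines had higher mean signals of BCL2 and BCL2L1 than the other 4, with overlap, and this rested on which DMS line was counted as sensitive. No member probe passed (0.00326% of all probes, 1 probe, did). At an unadjusted p under 0.05 were 5 of 20, all of BCL2, BCL2L1 or BMF, where 2208 of the 30716 probes were. The sets were free of overlap for 0 of 20 member probes, where 2.79% of all probes were. BCL2L1 ILMN_1654118 ranged over 9.74 to 10.68 among the 5 sensitive and 8.64 to 9.85 among the 4 insensitive lines, with means of 10.30 and 9.36 (difference 0.94 ± 0.28, adjusted p = 0.563). For BCL2 ILMN_2246956 the sensitive lines were at 8.82 to 10.13 and the others at 6.74 to 9.85, with means of 9.70 and 7.95 (difference 1.75 ± 0.64, adjusted p = 0.624). DMS53 was the insensitive line that lay among the sensitive ones for this BCL2 probe. The dim BCL2 probe ILMN_2363250 hardly differed, with means of 6.77 and 6.74 (difference 0.03 ± 0.088, adjusted p = 0.939). BMF ILMN_1695354 had means of 7.32 and 6.60 (difference 0.72 ± 0.31, adjusted p = 0.678). With the set of the study's text, DMS114 in place of DMS153, the differences were 0.26 ± 0.42 for this BCL2L1 probe (means 9.996 and 9.73), 0.22 ± 0.88 for BCL2 (9.02 and 8.80) and 0.13 ± 0.39 for BMF, with adjusted p of 0.988 to 0.991. With 9 arrays the SE of such a difference is large, and a miss does not show equal levels. The slope of a Con signal on the log2 cisplatin dose passed for no member (0% of all probes). At an unadjusted p under 0.05 were 3 member probes, where 1313 of the 30716 probes were. The steepest of these 3 was MCL1 ILMN_1803988 at −0.145 ± 0.052 per doubling of the dose (adjusted p = 0.999).

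The C+50 changes were then split by these sets. In the sensitive lines 2 member probes passed, where 8.68% of all probes did, and in the insensitive lines 2 passed, where 10.1% did. MCL1 ILMN_1803988 rose in both, by 0.20 ± 0.056 in 5 of 5 sensitive lines (adjusted p = 0.0116) and by 0.25 ± 0.063 in 4 of 4 insensitive lines (adjusted p = 0.00545). The difference between the sets was −0.042 (95% interval −0.21 to 0.127). Without DMS153 the call in the sensitive set was lost (0.15 to 0.23 over all omissions), and without H69 or DMS114 that in the insensitive set (0.21 to 0.30). After scaling to 1 median neither passed, at 0.20 (adjusted p = 0.327) and 0.22 (adjusted p = 0.308), and the share of higher calls in the insensitive lines was 46.5% after quantile normalization and 23.5% after that scaling.

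BAK1 and BIK differed more between the sets, short of the test. BAK1 rose in 4 of 4 insensitive lines, from 6.72 to 7.06 in H128, 7.19 to 7.66 in DMS114, 6.86 to 6.98 in H69 and 7.02 to 7.09 in DMS53. In DMS114 the Con array was the lowest of the 7, whose mean was 7.47. BAK1 there lay above Con in every treatment and not with C+50 alone. The fitted rise was 0.25 ± 0.063 (adjusted p = 0.00524), and it was lost without DMS114 (0.18 to 0.31 over all omissions) and after scaling to 1 median (0.21, adjusted p = 0.0874). With the set of the study's text, where DMS153 replaces DMS114 among the insensitive lines, it was 0.11 (adjusted p = 0.372). The log2 of the summed linear fibroblast signal of DMS114 was 12.69 at Con and 12.72 with C+50. In the sensitive lines BAK1 changed by −0.17 in H146 and H187, −0.077 in DMS153, 0.050 in H209 and 0.089 in H526 (fitted −0.055 ± 0.057, adjusted p = 0.705), and H526 overlapped with DMS53 in size. The difference of −0.31 ± 0.085 (95% interval −0.475 to −0.135) had an unadjusted p of 0.000722 and an adjusted p of 0.317. No probe of any gene passed for this difference (0% of all probes). At an unadjusted p under 0.05 were 2 member probes, where 2205 of the 30716 probes were. BIK was lower in 4 of 5 sensitive lines, by up to −0.30 in H526, at −0.15 ± 0.047 (adjusted p = 0.0372), a call lost without H187, H209, H526 or DMS153 (−0.20 to −0.11 over all omissions), after scaling to 1 median (−0.15, adjusted p = 0.0673) and with the set of the study's text (−0.12, adjusted p = 0.136). In the insensitive lines BIK gave 0.0070 ± 0.053, but 3 of those 4 lines had no detected BIK signal, so a fall could not be measured there, and DMS53, where BIK was detected, changed by −0.215.

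**Figure D4:**
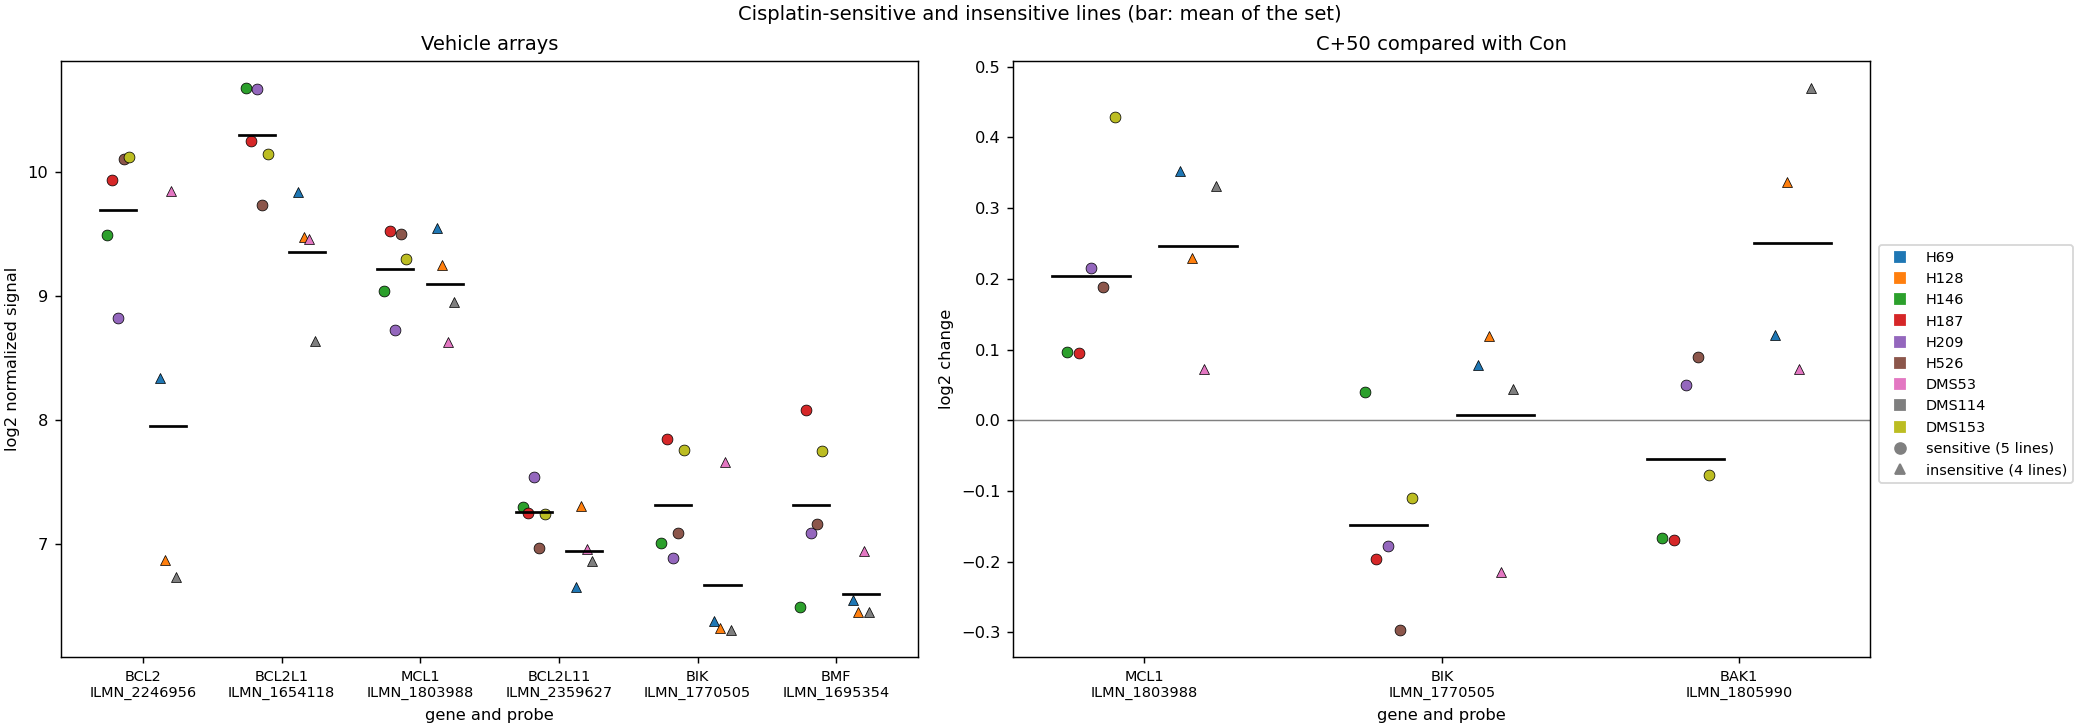
Left, log2 normalized signal at Con of 6 probes in the 5 sensitive lines (circles) and 4 insensitive lines (triangles). Right, the log2 change with C+50 of 3 probes in the same lines. Horizontal bars are set means and colours are lines. BCL2L1 and BCL2 overlap between the sets, and BAK1 is higher with C+50 in 4 of 4 insensitive and 2 of 5 sensitive lines.

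The rest of the apoptosis machinery was counted with 1 probe per gene, where 11.7% of all probes passed with A50 and 17.2% with C+50. Of 11 other BCL2 family genes measured, 1 rose and 2 fell with C+50, and 1 fell with A50. PMAIP1, which encodes NOXA, the BH3-only partner of MCL1, rose with C+50 in 8 of 9 lines by 0.33 ± 0.064 (adjusted p = 7.44e-05). BCL2L13 fell by 0.13 and BNIP3 by 0.12 on the log2 scale. Of 9 genes for the apoptosome and caspases, 4 fell with A50 and 3 with C+50, and none rose, with APAF1, the scaffold of the apoptosome, at −0.23 in both. CASP2 fell with A50 by 0.16 and CASP6 with C+50 by 0.155 on the log2 scale.

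Of 7 ubiquitin ligases and deubiquitinases of MCL1, 2 fell with A50 and 3 with C+50, and these counts and those that follow stand beside the same 11.7% and 17.2% of all probes. USP13 fell with C+50 by 0.31 ± 0.042 (adjusted p = 4.01e-08) and USP9X by 0.30 ± 0.049 (adjusted p = 3.05e-06), each in 9 of 9 lines, and both are deubiquitinases known to spare MCL1 from degradation. USP9X was also called with C+0 (−0.18, adjusted p = 0.0374) and C+5 (−0.20, adjusted p = 0.0154), and USP13 with C+5 (−0.175, adjusted p = 0.0122). With C+0 1.26% and with C+5 1.66% of all probes passed. BTRC, a ligase subunit, fell with C+50 by 0.086. Of 8 transcription factors of BH3-only genes, 1 rose and 3 fell with A50, and 2 rose and 3 fell with C+50, with DDIT3 at −0.31, FOXO4 at −0.23 and ATF4 at −0.16 with A50. Of 16 p53 targets, 1 rose and 3 fell with A50 and with C+50 2 rose and 2 fell, with XPC at 0.26, TP53INP1 at 0.22 and TP53I3 at −0.16 with C+50. Of 7 inhibitors of apoptosis and their antagonists limma called 0 with A50 (0 at an unadjusted p under 0.05) and 1 with C+50, BIRC6, which fell by 0.11 on the log2 scale. Of 6 death receptor genes it called 0 in either comparison, with 1 at an unadjusted p under 0.05 with A50 and 3 with C+50. In each of these 7 lists the median change with A50 and C+50 lay between −0.135 and 0.067, where the median of all probes was −0.00013 and 0.0012. With Rad over 9 lines 1 gene of the 7 lists passed, BCL2L13, at −0.13 ± 0.035 (adjusted p = 0.0456), where 0.827% of all probes did. Within the H lines, where 5.36% of all probes passed, PMAIP1 rose by 0.34 ± 0.062 (adjusted p = 0.000118). BIRC2 rose there by 0.17 ± 0.052 (adjusted p = 0.0319).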

How the data were processed

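Total RNA of 9 SCLC lines under 7 conditions was hybridized to 63 Illumina BeadChip arrays (HT-12 v4), 1 per line and condition. The authors read bead intensities in GenomeStudio 2010.3 and deposited each probe's intensity before normalization and after quantile normalization, on the linear scale. Whether background was subtracted is not given in the sources used here. The deposited p-value per probe and array is the detection p against negative controls.

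Here the intensities before normalization (lowest 68.4) were quantile normalized and log2 transformed, without background correction (limma 3.58.1; R 4.3.3), and differed from the log2 of the authors' normalized values by at most 0.015. Probes with detection p under 0.05 on at least 4 arrays were kept. The linear models of limma (lmFit, eBayes) held a fixed term for the line, tests were two-sided, and Benjamini-Hochberg adjustment ran over all kept probes, with calls at 0.05. The replicate number of the labels is the line, and over 189 pairs of arrays of the same line deviations correlated at 0.9285 to 0.9821 (median −0.13 for different lines), so the number pairs the samples. At baseline the 9 Con arrays were compared without a block. The scripts were tested on simulated data.

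Gene symbols came from the platform annotation (21620 kept probes had 1 symbol, 4 several and 9092 none used here), and upstream sequences from RefSeq on GRCh38.p14. Named were all member probes, in full the brightest kept probe of each gene and every probe past the test, and up to 3 genes per list, those with the largest change among the called with A50 or C+50. Members, lists and comparisons were chosen with earlier results of these data known. Other settings tried were neqc (offset 16) in place of quantile normalization, scaling to 1 median, the normalized values of the authors, all probes without a filter, a filter of detection p under 0.01 on 32 or more arrays, omission of each line, no block, the compared arrays alone, DMS114 instead of DMS153 among the sensitive lines, the dose in µmol/L, and calls by an unadjusted p of 0.01 and a change of 1.5-fold. No array was left out, and the BeadChip of an array is not given in the sources used here. The number of arrays limits the precision. Plots came from matplotlib 3.10.9.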

Additional observations from a re-analysis of the deposited data

Results flagged for a closer look

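At Con, HRK ILMN_2193706 was 8.09 in H128 and between 6.53 and 7.01 in the 8 other lines. The gap between H128 and the next line was 0.693 of the whole range, above Dixon's 95% critical value for 9 values. Of 28 groups of 9 values examined in this way (levels at Con and changes of called probes), this was the 1 past the ratio, where chance gives about 1 in 20. Neither interaction test, of C+50 between sensitive and insensitive lines or of Rad between H and DMS lines, passed for a member probe.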

How the results depend on the processing

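Over 297 recomputed counts of member probes called, 240 stayed within 1.5 times the count given and 57 did not. Over 203 recomputed changes of single called probes 122 kept the call and 81 lost it. None turned direction. The other filters, no block, the compared arrays alone and the other cut-off leave the fitted change as it was, so the direction could not turn under these. Leaving out each line in turn gave 1 to 3 called member probes for A50, 0 to 1 for C+5, 1 to 3 for C+50, 1 to 3 for C+50 against C+0, and for C+50 by set 0 to 2 in sensitive and 0 to 2 in insensitive lines. Without the block by line 0 member probes were called for A50, C+5, C+50, C+50 against C+0 and C+50 in either set of lines, and no other count it was run for changed. Calls by an unadjusted p of 0.01 and 1.5-fold also gave 0 for each of these comparisons, since no member changed by 1.5-fold with treatment, and gave 1 at baseline between the sets of lines, BCL2L1 ILMN_1654118. Scaling to 1 median gave 0 for C+5, C+50 against C+0 and C+50 in the sensitive and insensitive lines, where 58, 1448, 1055 and 1322 of all 30716 probes were called. It gave 2 for Rad in the H lines, 1 for Rad in the DMS lines and 6 for the Rad difference, where 2638, 2395 and 6313 of all probes were called. No filter gave 2 for A50. The stricter filter and neqc gave 2 for C+50 against C+0, and neqc gave 1 for Rad in the H lines. The compared arrays alone gave 1 for A50, 0 for C+5, 2 for C+50 against C+0 and 1 for C+50 against A50. The sensitive set with DMS114 gave 1 for C+50 in each set, MCL1 ILMN_1803988 in each, and not BIK (−0.12, adjusted p = 0.136) or BAK1 (0.11, adjusted p = 0.372). The cause of these shifts was not tested. MCL1 ILMN_1803988 with C+50 kept its call over the 9 lines under every normalization, filter and omission run (adjusted p = 0.0481 after scaling to 1 median, the highest of the normalizations). With neqc, which corrects for background, the changes of dim called probes were larger, such as −0.22 for BCL2L11 ILMN_2359627 with C+50, 0.25 for BAD ILMN_1685398 with A50, and 0.57 for BAK1 and −0.34 for BIK in their sets. BAD ILMN_1720360 could not be fitted under the stricter filter. Probes near the detection limit, such as BAD ILMN_1720360, have little signal over background to change.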
